A study of Mus musculus with 28 samples.

Results

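The forkhead genes examined here were 9 members of the family with roles in mesoderm and endoderm, *Foxc1*, *Foxc2*, *Foxf2*, *Foxl1*, *Foxa1*, *Foxa2*, *Foxa3*, *Foxd3* and *Foxo1*. They were chosen by name, and all 9 were found in the mm9 annotation, among 44 forkhead genes and 22368 genes tested. *Foxc1* (ENSMUSG00000050295.2) lies at chr13:31898515-31902504 and *Foxf2* (ENSMUSG00000038402.2) on the same chromosome at chr13:31717685-31723272. *Foxc2* (ENSMUSG00000046714.6) lies at chr8:123640071-123642792 and *Foxl1* (ENSMUSG00000043867.4) at chr8:123651840-123652929, and these 4 genes are on the plus strand. *Foxa1* (ENSMUSG00000035451.6) at chr12:58641618-58647108, *Foxa2* (ENSMUSG00000037025.5) at chr2:147868613-147872705 and *Foxa3* (ENSMUSG00000040891.5) at chr7:19598631-19608887 are on the minus strand. *Foxd3* (ENSMUSG00000067261.3) at chr4:99322990-99325362 and *Foxo1* (ENSMUSG00000044167.5) at chr3:52072259-52154031 are on the plus strand. The data were 17 lists of regions enriched in ChIP-seq from mouse embryonic stem cell (ESC)-derived mesodermal cultures at day 4, each list holding the positions of regions called in 1 replicate. The histone marks and Suz12 were profiled in Brg1f/f;Actin-CreER cultures, in which a tamoxifen-activated Cre recombinase under the Actin promoter deletes the floxed *Brg1* alleles. Control cultures received the solvent tetrahydrofuran (THF), and the others received 200 nM 4-hydroxytamoxifen (4-OHT) from day 2, when VEGF, Activin A and BMP4 were added for 40 h. H3K27me3 was profiled in 3 control and 3 4-OHT replicates, and Suz12 and H3K27ac in 2 and 2. FLAG ChIP was profiled in 3 replicates without 4-OHT, which the labels describe as Brg1f/f;Actin-CreER with normal *Brg1*, whereas the methods use ESCs with a FLAG tag at the endogenous *Brg1* locus. Each genotype was 1 ESC line, the deletion of *Brg1* itself cannot be checked in these lists, and replicates were called biological without further detail, so their spread may be partly technical.

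Forkhead proteins are transcription factors that share a winged-helix DNA-binding domain. Foxc and Foxf factors act in paraxial and lateral mesoderm, in vessels and in visceral mesenchyme, and the Foxa factors are pioneer factors of endoderm that bind closed chromatin. Many such genes are held silent in cells that do not use them by Polycomb repressive complex 2 (PRC2), whose subunit Suz12 is needed for the trimethylation of histone H3 at lysine 27 (H3K27me3), while acetylation of the same residue (H3K27ac) marks active promoters and enhancers. Brg1 is the ATPase of the BAF chromatin remodelling complexes.

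The value used throughout is the number of base pairs covered by enriched regions, either within 5 kb on each side of a gene's transcription start site (the TSS window) or over the gene body and 50 kb on each side (the locus window). A member was called separated when every 4-OHT list lay below, or above, every control list. With 3 lists against 3 the smallest two-sided exact permutation p is 0.1, and with 2 against 2 it is 0.333. No single gene can therefore pass a threshold of 0.05. The share of all genes called by the same rule is given beside the counts from unscaled, complete sets of lists. It is not given for counts after scaling, with a list left out or under most other alternatives. Those counts cannot be set against all genes. The lists give no read depth. They differed most in 4 respects. FLAG replicate 3 held 192 regions against 8021 and 8257 in the other two. H3K27me3 covered 8.38 to 11.0 Mb in controls and 4.74 to 8.99 Mb after 4-OHT over the genome. Replicate 1 of H3K27me3 held narrower regions in both conditions, at most 9300 and 7550 bp wide, where every other H3K27me3 list reached at least 33350 bp. Suz12 replicate 2 after 4-OHT covered 4.77 Mb, more than the 3.58 to 4.08 Mb of the other Suz12 lists. The cultures carried H3K27ac in both control lists at 9 of 10 mesoderm and primitive streak markers, with *Kdr* at 0, at 4 of 7 endoderm markers, with *Sox17*, *Gata4* and *Foxa2* at 0, and at 0 of 4 neural markers. H3K27ac summed over these lists was 32541 and 44740 bp for mesoderm in control and 23393 and 33715 bp after 4-OHT. For endoderm it was 4828 and 8653 bp in control cultures against 2583 and 4233 bp with 4-OHT, for pluripotency markers 10694 and 10594 bp against 10644 and 10569 bp, and for neural markers 0 bp in both controls against 550 and 350 bp, all at *Neurod1*. Single endoderm genes moved both ways. *Cxcr4* was listed in both controls and in neither 4-OHT list, and *Gata4* in neither control and in both 4-OHT lists. The pluripotency gene *Zfp42* was in both lists only after 4-OHT. In bulk cultures, fewer cells of a type and less of a mark per cell cannot be told apart, and the part of these shifts in the results was not tested.

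In control cultures, most of these genes lay in Polycomb domains. *Foxc1*, *Foxc2*, *Foxf2*, *Foxl1*, *Foxa1*, *Foxa2* and *Foxd3* carried H3K27me3 in all 3 control lists and Suz12 in both, that is 7 of 9 members (77.8%). Among the 35 other forkhead genes, 16 (45.7%) carried H3K27me3 in all 3 control lists and 14 (40%) Suz12 in both, and over all genes the shares were 11.8% and 6.04%. H3K27ac lay in both control lists at *Foxa3* and *Foxo1*, 2 of 9 members (22.2%), against 13 of 35 other forkhead genes (37.1%) and 47.7% of all genes. Polycomb marks without any H3K27ac in control were found at 6 members, at 11 other forkhead genes and at 4.6% of all genes. The exception among the Polycomb-marked members was *Foxc1*, at which control replicate 2 listed 75 bp of H3K27ac at the start site. *Foxa3* had neither H3K27me3 nor Suz12 in its TSS window in any list. *Foxo1* had no Suz12, and its H3K27me3 was 450, 150 and 0 bp in control cultures against 150, 0 and 0 bp with 4-OHT.

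**Figure D1:**
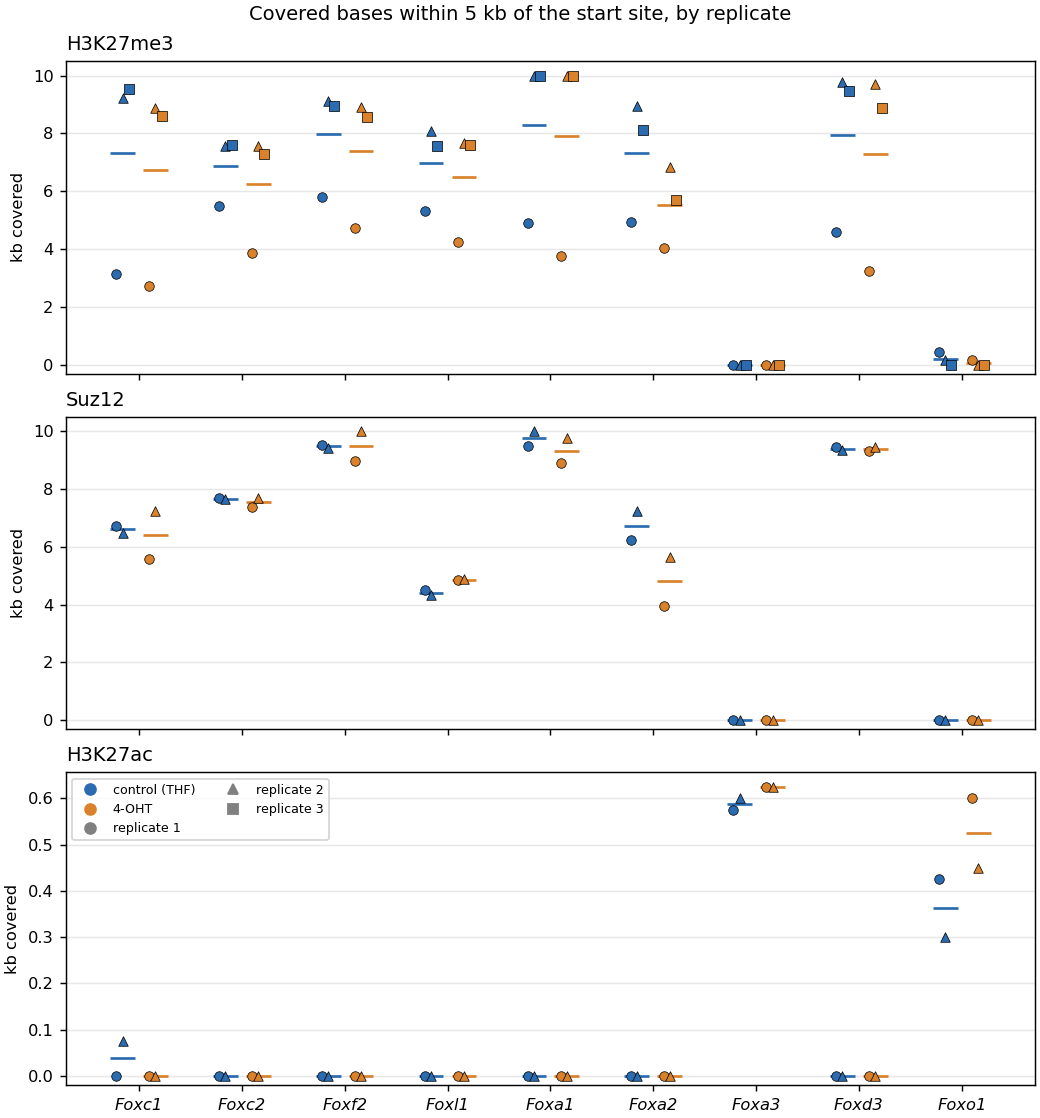
Kilobases covered by enriched regions within 5 kb of the start site (y axes, one panel per mark) for each of the 9 forkhead genes (x axis), with one point per replicate list and a bar at the group mean. For H3K27me3, replicate 1 (circles) sits below replicates 2 and 3 in both conditions at all 7 Polycomb-marked genes, and for Suz12 only *Foxa2* and *Foxl1* have groups that do not overlap.

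After 4-OHT, none of the 8 members with H3K27me3 in the TSS window was separated lower or higher, against 12% of 4205 genes separated lower and 0.19% separated higher. At members with wide domains, control replicate 1 was far below replicates 2 and 3. A lower call there needed every 4-OHT list to fall below that low value, so its absence says little. Without control replicate 1, *Foxc1*, *Foxf2* and *Foxa2* were separated lower, and the share of all genes for that setting is not given. *Foxa2*, which encodes the pioneer factor of definitive endoderm, axial mesoderm and floor plate, had the largest difference. It covered 4921, 8951 and 8121 bp in control cultures against 4046, 6821 and 5696 bp with 4-OHT, a change in the mean of -24.7%, with an exact permutation p of 0.3 (two-sided, n = 3 and 3). *Foxc1*, a regulator of paraxial mesoderm and vessel development, covered 3150, 9226 and 9551 bp in control cultures against 2725, 8876 and 8586 bp with 4-OHT. *Foxf2*, expressed in visceral and craniofacial mesenchyme, covered 5810, 9126 and 8951 bp in control cultures against 4710, 8926 and 8576 bp with 4-OHT. *Foxd3*, a factor of pluripotent cells and neural crest, covered 4600, 9761 and 9461 bp in control cultures against 3225, 9711 and 8886 bp with 4-OHT. These 4 genes were lower after 4-OHT in all 3 same-numbered pairs, while replicate 1 was low in both conditions and the groups overlapped. Samples with the same number deviated together across genes, so the pairs are given here: 4 of 8 members were lower in all 3 pairs, against 44% of all genes tested. Whether replicates 2 and 3 belong together by number was not tested. At *Foxd3*, control replicate 3 (9461 bp) lay below 4-OHT replicate 2 (9711 bp).

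*Foxa1*, the pioneer factor of gut and its derivatives, covered 4901, 10001 and 10001 bp in control cultures against 3768, 10001 and 10001 bp with 4-OHT. Replicates 2 and 3 filled the whole window, so a loss or gain beyond its edges cannot show there. *Foxc2*, which acts with *Foxc1* in somites and lymphatic vessels, covered 5471, 7546 and 7596 bp in control cultures against 3850, 7571 and 7296 bp with 4-OHT. *Foxl1*, a gene of gut mesenchyme that this annotation lists as a pseudogene, covered 5325, 8086 and 7561 bp in control cultures against 4225, 7661 and 7586 bp with 4-OHT. Both had 1 pair of 3 that was slightly higher.

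A gene enters a median of percent changes only with H3K27me3 in control, which favours a fall, and short regions weigh as much as wide domains. With that limit, the median change over the 8 members was -8.17%, over the 18 other forkhead genes with H3K27me3 in control -22%, and over the 4083 such genes in all -42.3%. Among 352 genes covered over at least 5000 bp in control, the median change was -11.5%, 4.55% were separated lower and 77.8% were lower in all 3 pairs, while the 7 members of that class had a median change of -7.94%, with 0 separated lower and 4 lower in all 3 pairs. Summed over members, H3K27me3 covered 34.6, 62.8 and 61.2 kb in control and 26.7, 59.6 and 56.6 kb after 4-OHT, a ratio of 0.9. Over the TSS windows of all genes, H3K27me3 covered 5.40, 7.75 and 7.01 Mb in control and 3.18, 6.48 and 5.45 Mb after 4-OHT. When each list was scaled to this total, the direction turned for all of these members but *Foxo1*: the ratio was 1.2, *Foxc2*, *Foxf2* and *Foxl1* were separated higher and 0 members separated lower. Raw coverage is bounded by the window, but scaled coverage is not. At *Foxa1*, pairs that filled the window in both conditions came out 1488 and 2395 bp higher, so at that gene these gains are those of the scaling factors. Without read depth, whether scaling corrects a difference between lists or adds one cannot be told, and it was not tested. Scaling also sets the totals equal, so it would hide a loss common to all genes. A limma fit across all 4205 genes called 0 members, with 0 of 8 at an unadjusted p under 0.05, and called 5 genes, all lower (0.119%), with 283 at an unadjusted p under 0.05. With the replicate number as a block limma called 0 members and 0% of genes, with 0 members and 472 genes at an unadjusted p under 0.05, and the adjusted p of *Foxa2* was 0.761 without and 0.484 with the block, for a log2 difference of -0.39.

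**Figure D2:**
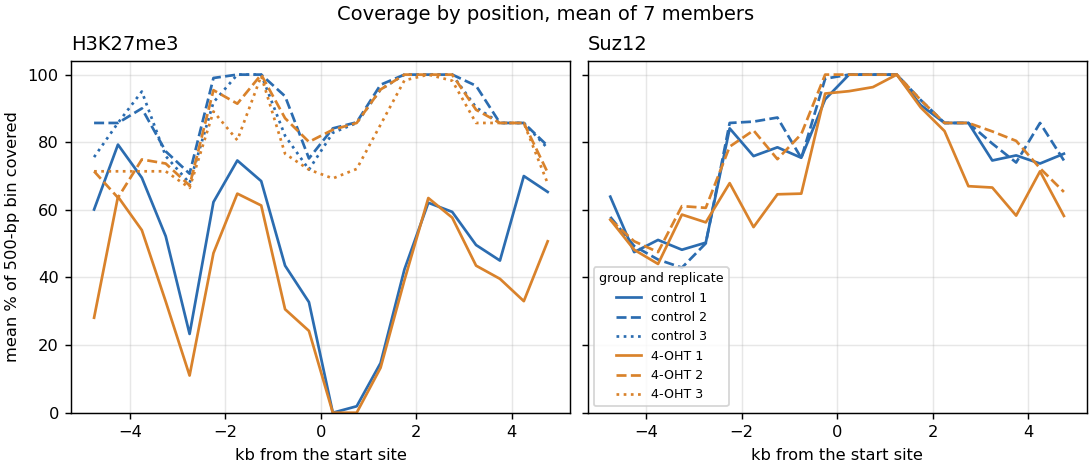
Mean percent of each 500-bp bin covered (y axes) by distance from the start site in kb (x axes) over the 7 Polycomb-marked forkhead genes, one line per list. H3K27me3 replicate 1 drops to 0 just downstream of the start site in both conditions, where, over the first 500 bp, replicates 2 and 3 lie between 69.3 and 84.1% and Suz12 between 95.1 and 100%.

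Bases covered in replicate 1 differed in composition from those covered in replicates 2 and 3 but not in 1. The composition of all bases covered in replicates 2 and 3 was not computed, so the contrast is between classes of bases. Within the members' TSS windows, the 34.6 kb covered in control replicate 1 had 45.6% GC and 18.7 CpG per kb. The 28.9 kb covered in control replicates 2 and 3 but not in 1 had 60.5% GC and 67.3 CpG per kb. After 4-OHT the 2 classes had 44.7% and 58.7% GC, and over the TSS windows of all genes the control values were 45.9% and 58.7%. In both replicate 1 lists the *Foxl1* gene body was covered over 0 bp, where all other H3K27me3 lists covered its full 1090 bp. All 9 members had an observed to expected CpG ratio above the median of all genes, at 0.364 (*Foxa3*) to 0.785 (*Foxd3*) against 0.279. The median over genes with H3K27me3 in all 3 control lists was 0.363. The part of base composition in the H3K27me3 differences was not tested.

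Over the locus windows, *Foxa2* alone was separated lower, 1 of 9 members against 15.9% of 9676 genes. Its H3K27me3 covered 23250, 27800 and 22000 bp in control cultures against 11875, 16750 and 15050 bp with 4-OHT, a change in the mean of -40.2%, with an exact permutation p of 0.1, the smallest these lists allow. The pairs showed the same direction more widely: 8 of 9 members, all but *Foxo1*, were lower in all 3 pairs, against 50.6% of all genes. Several locus windows overlap, since *Foxc2* and *Foxl1* share most of theirs, so these counts are not independent. After scaling to each list's coverage over all TSS windows, *Foxa2* and *Foxa3* were still lower in all 3 pairs and not separated, with changes in the mean of -17.7% and -50.2%. By contrast *Foxc1*, *Foxc2*, *Foxf2*, *Foxl1* and *Foxa1* were then higher in all 3 pairs, and *Foxf2* and *Foxa1* were separated higher by 20.2% and 25.8%. Each of these genes had been lower in all 3 pairs before scaling, so their rise appeared only with the scaling and no bases were added. From 50 to 5 kb upstream of the start, 4 of 8 members with H3K27me3 there, *Foxc1*, *Foxa2*, *Foxa3* and *Foxd3*, were separated lower, against 15.4% of genes, and after scaling only *Foxa2* and *Foxa3* were. The H3K27me3 near *Foxa3* lay away from the gene, at the start of *Mypop* 31.0 kb downstream, in *Nova2* 59.6 kb downstream and in *Rsph6a* 41.8 kb upstream. It summed to 1925, 3850 and 3950 bp in control cultures against 25, 2825 and 1425 bp with 4-OHT.

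Suz12 coverage in the TSS windows was nearly the same in both conditions for most members. *Foxa2* was separated lower, 1 of 7 members with Suz12 against 5.76% of 2291 genes, and *Foxl1* was separated higher, 1 of 7 against 32.1%. At *Foxa2*, Suz12 covered 6221 and 7246 bp in control cultures against 3950 and 5650 bp with 4-OHT, a change in the mean of -28.7% (exact permutation p = 0.333, n = 2 and 2). At *Foxl1* it covered 4511 and 4325 bp in control cultures against 4850 and 4875 bp with 4-OHT. The added bases came from 1 region 3.19 kb upstream of *Foxl1*, between it and *Foxc2*, which covered 0 bp in both controls and 650 and 550 bp after 4-OHT, and *Foxl1* was not separated over the locus window or after scaling. *Foxa2* remained separated lower under each alternative tried, and after scaling *Foxc1* and *Foxa1* joined it, giving 3 members lower and 0 higher.

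The other values were close. At *Foxc1* Suz12 covered 6726 and 6476 bp in control cultures against 5561 and 7226 bp with 4-OHT, and at *Foxc2* 7671 and 7646 bp in control cultures against 7371 and 7696 bp with 4-OHT. At *Foxf2* it covered 9526 and 9426 bp in control cultures against 8966 and 10001 bp with 4-OHT. *Foxa1* had 9501 and 10001 bp in control cultures against 8901 and 9751 bp with 4-OHT, and *Foxd3* had 9436 and 9361 bp in control cultures against 9311 and 9461 bp with 4-OHT. In these 5 genes replicate 1 after 4-OHT was lower than replicate 2, and the groups overlapped. The count therefore rested on those 2 lists: without 4-OHT replicate 2, 6 members were separated lower, and without 4-OHT replicate 1, 5 were separated higher. The median change was -1.63% over 7 members and 12.3% over the 1687 genes with Suz12 in control. Over the locus windows *Foxa2* and *Foxa3* were separated lower, 2 of 8 against 5.49%, and 0 of 8 were separated higher, against 30.6%.

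H3K27ac in the TSS windows concerned few members. *Foxa3* and *Foxo1* were separated higher, 2 of 3 members with any H3K27ac against 39.8% of 12031 genes, and 0 of 3 were separated lower, against 12.6%. *Foxo1*, a transcription factor that insulin and PI3K signalling keeps out of the nucleus, had 425 and 300 bp in control cultures against 600 and 450 bp with 4-OHT, in 1 region 0.342 kb inside the gene, near the start of a non-coding transcript. *Foxa3*, the family member of liver and gut, had 575 and 600 bp in control cultures against 625 and 625 bp with 4-OHT. The main region lay over an exon of *Sympk*, just past its start 0.839 kb upstream of *Foxa3*. It overlapped between groups, at 575 and 600 bp in control cultures against 525 and 575 bp with 4-OHT. The separation came from a region of 100 bp 0.464 kb upstream of *Foxa3*, listed over 0 bp in both controls and over 100 and 50 bp with 4-OHT, and the start sites of the genes are too close to tell them apart there. Neither gene was separated after scaling. Over the locus windows *Foxc1*, *Foxa1* and *Foxo1* were separated lower, 3 of 7 against 21.9%, and *Foxc2* higher, 1 of 7 against 38.8%. The regions behind these calls are given by locus.

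No member had a Brg1-bound region, meaning a region shared by at least 2 of the 3 FLAG lists, in its TSS window, against 2.11% of all genes. A region in any single FLAG list was found there at 4 of 9 members, *Foxc1*, *Foxa1*, *Foxd3* and *Foxo1*, against 14.1% of all genes, and over the locus windows at 8 of 9 against 44.3%. Over the locus windows *Foxc1*, *Foxa1* and *Foxa2* had Brg1-bound regions, 3 of 9 against 12.5% of all genes. FLAG replicate 3 listed a region near *Foxa1* only, so without replicate 1 or without replicate 2 the count was 1, *Foxa1*.

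*Foxc1* lost all of its listed H3K27ac. Its locus window covered 1300 and 3025 bp in control cultures against 0 and 0 bp with 4-OHT (exact permutation p = 0.333). The mark lay in 4 places outside the promoter in both controls. The widest, 46.3 kb upstream, covered 675 and 1775 bp, those 13.5 and 12.6 kb upstream covered 200 and 350 bp and 325 and 350 bp, and that 14.45 kb downstream, in an intron of *Gmds*, covered 100 and 475 bp. A Brg1-bound region of 225 bp lay in the first, 46.5 kb upstream, and 1 of 200 bp in the region 12.6 kb upstream, both intergenic. Their 300-base surroundings in mm9 (plus strand) are shown because they are the only Brg1-bound sequences of this locus; capitals would mark a match to 1 of 5 motifs, and neither window has one. The motifs, searched on both strands, were TGTTTAC and TGTTTGC for forkhead factors, AGATAAG for GATA factors, AGGTGTG for T-box factors and CTTTGAA for Tcf factors, and 5.06%, 6.28%, 5.77%, 7.07% and 7.7% of the 2390 Brg1-bound windows of the genome held them.
Foxc1 46.5 kb upstream, chr13:31851888-31852187: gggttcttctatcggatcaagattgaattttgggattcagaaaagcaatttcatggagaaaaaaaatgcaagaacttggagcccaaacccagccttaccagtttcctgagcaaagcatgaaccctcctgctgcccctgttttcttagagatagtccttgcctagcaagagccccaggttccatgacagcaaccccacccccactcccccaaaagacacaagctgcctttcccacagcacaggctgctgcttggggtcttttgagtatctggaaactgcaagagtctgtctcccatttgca
Foxc1 12.6 kb upstream, chr13:31885801-31886100: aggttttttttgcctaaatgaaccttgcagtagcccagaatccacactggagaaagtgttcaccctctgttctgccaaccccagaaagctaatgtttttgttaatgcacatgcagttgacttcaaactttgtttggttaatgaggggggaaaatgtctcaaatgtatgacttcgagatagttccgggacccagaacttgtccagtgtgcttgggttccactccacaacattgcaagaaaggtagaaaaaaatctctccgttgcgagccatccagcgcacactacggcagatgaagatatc

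**Figure D3:**
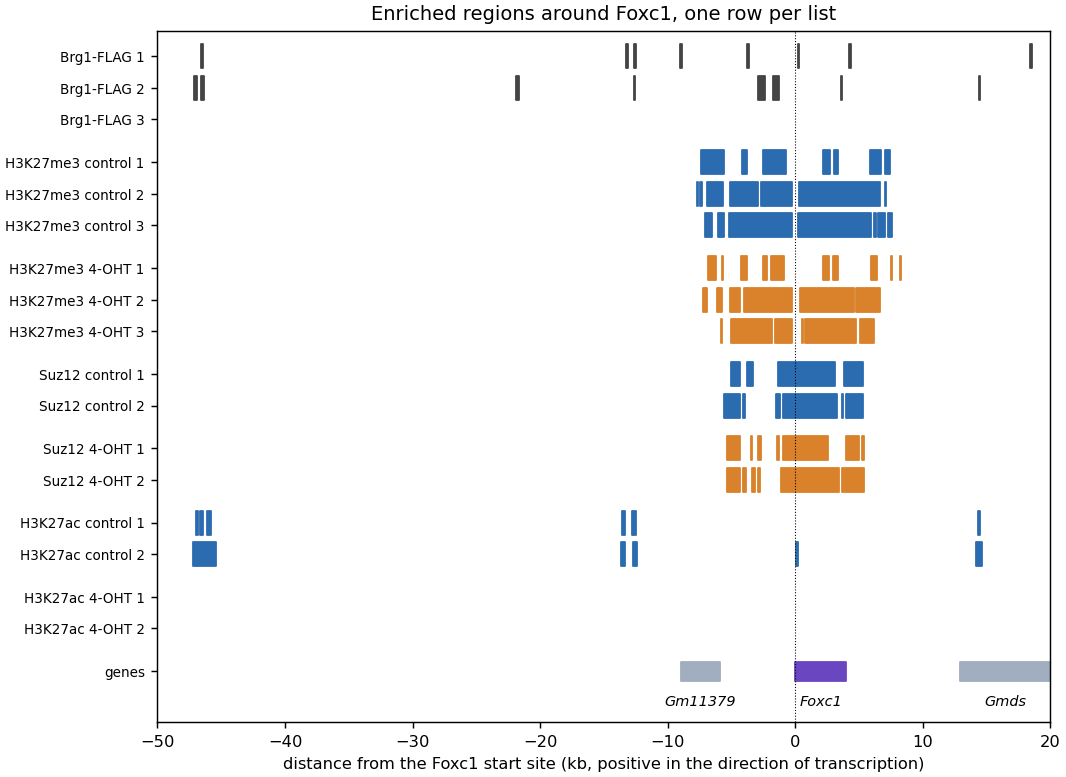
Enriched regions in each list (rows) by distance from the *Foxc1* start site in kb (x axis), with very narrow regions drawn wider than they are. H3K27ac is listed at 4 distal places in the 2 control rows, with 75 bp at the start site in 1 of them, and nowhere in the 2 4-OHT rows, while the H3K27me3 and Suz12 blocks around the gene appear in all rows of both conditions.

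Around the *Foxc1* start site the Polycomb groups overlapped. Suz12 covered 3265 and 3365 bp of the gene body in control and 2590 and 3715 bp after 4-OHT. H3K27me3 from 50 to 5 kb upstream was separated lower, at 1800, 1489 and 1239 bp in control cultures against 750, 839 and 139 bp with 4-OHT, but not after scaling, when *Foxc1* was 6.04% higher over its locus window. FLAG replicates 1 and 2 each listed 3 regions in the *Foxc1* TSS window, but none overlapped, and the smallest gap between them was 475 bp. *Foxf2* lies 180.8 kb from *Foxc1*. From *Foxf2* to *Foxc1* with 50 kb on each side, H3K27me3 covered 18.5, 30.3 and 29.5 kb in control and 12.6, 28.6 and 26.4 kb after 4-OHT. *Foxf2* itself had no H3K27ac in its locus window in any list.

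In the cluster of *Foxf1* (annotated as *Foxf1a*), *Foxc2* and *Foxl1* the Polycomb coverage of the groups also overlapped. The 3 genes lie within 44.6 kb of chromosome 8, with 31.8 kb between the starts of *Foxf1a* and *Foxc2* and 11.8 kb between those of *Foxc2* and *Foxl1*. Over the genes and 50 kb on each side, H3K27me3 covered 21.6, 39.7 and 37.9 kb in control and 15.2, 36.4 and 37.1 kb after 4-OHT. Suz12 covered 31.4 and 30.9 kb in control and 29.6 and 31.4 kb after 4-OHT. *Foxf1a* filled its TSS window with Suz12 in all lists, at 10001 bp each. One gap in the domains held the *Mthfsd* gene, with 2 H3K27ac regions near its annotated start sites. That 8.01 kb upstream of *Foxc2* covered 675 and 425 bp in control cultures against 1075 and 975 bp with 4-OHT, and that 11.5 kb upstream covered 25 and 375 bp in control cultures against 425 and 525 bp with 4-OHT. The separation of *Foxc2* over its locus window, 700 and 900 bp in control cultures against 1500 and 1500 bp with 4-OHT, lay in these 2 regions, apart from 100 bp in control replicate 2. A region 42.8 kb downstream of *Foxl1* covered 175 and 1550 bp in control and 0 bp in both lists after 4-OHT. FLAG was listed over 25 bp in 1 replicate, with no Brg1-bound region in the cluster.

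*Foxa1* had the best supported Brg1 binding. The 3 FLAG lists covered 750, 1450 and 50 bp of its locus window. Brg1-bound regions of 1150 bp and 275 bp lay 25.9 and 26.8 kb upstream, in an intron of *Ttc6*. Both were inside 1 H3K27ac region, which covered 1775 and 1925 bp in control cultures against 1475 and 1250 bp with 4-OHT, a change in the mean of -26.4%, with groups that did not overlap. This was the only H3K27ac in the locus window, and it lay between the wide Polycomb domain over *Foxa1* and a smaller H3K27me3 domain at a start of *Ttc6*. That second domain, 29.8 kb upstream, carried 2650, 3950 and 4200 bp of H3K27me3 in control and 1750, 3225 and 4025 bp after 4-OHT. Suz12 was listed in it over 0 bp in both controls and over 425 and 500 bp after 4-OHT. The middle 300 bases of the wide Brg1-bound region had no match to the 5 motifs, and the other had 1 match to the T-box motif AGGTGTG, in capitals on the minus strand.
Foxa1 25.9 kb upstream, chr12:58672851-58673150: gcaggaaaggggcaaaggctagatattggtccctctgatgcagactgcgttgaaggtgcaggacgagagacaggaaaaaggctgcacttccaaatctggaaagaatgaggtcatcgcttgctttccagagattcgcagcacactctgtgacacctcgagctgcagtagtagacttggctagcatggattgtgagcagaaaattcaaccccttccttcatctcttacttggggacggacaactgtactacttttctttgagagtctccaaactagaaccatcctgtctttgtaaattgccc
Foxa1 26.8 kb upstream, chr12:58673713-58674012: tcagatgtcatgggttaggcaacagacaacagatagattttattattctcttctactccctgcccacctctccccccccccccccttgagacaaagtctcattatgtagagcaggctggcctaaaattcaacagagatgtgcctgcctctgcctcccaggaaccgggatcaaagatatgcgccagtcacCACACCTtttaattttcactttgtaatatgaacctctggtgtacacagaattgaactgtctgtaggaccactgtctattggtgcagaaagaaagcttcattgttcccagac

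*Foxa2* had less coverage of both Polycomb marks after 4-OHT, although H3K27me3 in its TSS window was 4.47% higher in the mean, with overlapping groups, after scaling. From 50 to 5 kb upstream, H3K27me3 covered 8500, 4970 and 1925 bp in control cultures against 800, 25 and 100 bp with 4-OHT, and in the 5 kb upstream of the start it covered 3375, 4550 and 3920 bp in control cultures against 2525, 2495 and 1770 bp with 4-OHT. Both segments were separated lower, the first also after scaling and the second not. In the 5 kb upstream this held for *Foxa2* alone among the members, against 13.3% of genes with H3K27me3 there. The 50 kb past the gene end covered 10737, 14787 and 12862 bp in control cultures against 7937, 10812 and 10162 bp with 4-OHT, lower in all 3 pairs with overlapping groups. The gene body covered 638, 3493 and 3293 bp in control cultures against 613, 3418 and 3018 bp with 4-OHT. The differences of the means were -4823, -1685, -3158 and -125 bp in this order. The first leans on control replicate 1, where regions of 1225 and 1375 bp were listed in that list only. In the pair of replicate 3 the fall was larger past the gene end than far upstream, so the order of these segments is not firm. Suz12 was separated lower in each segment that held it, with 1695 and 2245 bp against 645 and 1620 bp in the 5 kb upstream, 4080 and 4093 bp against 3055 and 4030 bp in the gene body, and 5625 and 5787 bp against 3750 and 4075 bp past the gene end, and each held after scaling. The shares of genes separated lower in these segments were 7.31%, 5.47% and 7.34%. No H3K27ac was listed in the locus window in any list, before or after 4-OHT. A Brg1-bound region of 225 bp lay 6.64 kb downstream of the start, directly before the annotated start of the non-coding transcript *9030622O22Rik* and inside the H3K27me3 and Suz12 domain. Its 300-base window had 12 CpG and no match to the 5 motifs.
Foxa2 6.64 kb downstream, chr2:147865913-147866212: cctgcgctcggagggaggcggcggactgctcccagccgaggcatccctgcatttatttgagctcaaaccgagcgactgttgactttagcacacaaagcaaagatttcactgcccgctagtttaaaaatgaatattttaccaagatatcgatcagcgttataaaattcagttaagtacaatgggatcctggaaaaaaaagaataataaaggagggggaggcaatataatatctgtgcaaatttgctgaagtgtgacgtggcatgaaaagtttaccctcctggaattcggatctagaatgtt

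**Figure D4:**
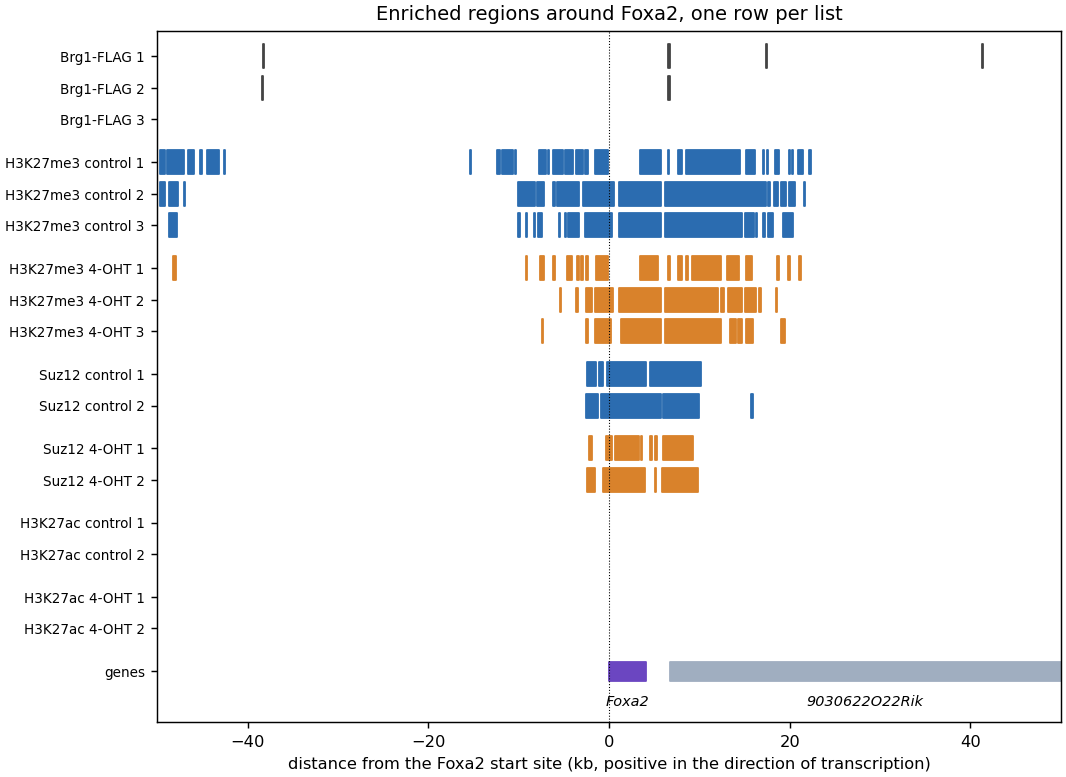
Enriched regions in each list (rows) by distance from the *Foxa2* start site in kb (x axis), with very narrow regions drawn wider than they are. Upstream of the start (negative values), H3K27me3 covers fewer bases in the 3 4-OHT rows than in the 3 control rows. The row of 4-OHT replicate 1 still lists many narrow regions there. The Suz12 blocks are shorter after 4-OHT, and both H3K27ac groups are empty.

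The 3 *Foxa* promoters differed in sequence as well as in marks at the start sites used here. *Foxa2* has 4 annotated start sites, of which only the outermost was taken, while *Foxa1* and *Foxa3* have 1 each. The 250 bases before each start are given below on the coding strand, with each CpG in capitals. *Foxa1* had 21 CpG at 60.4% GC, *Foxa2* had 6 at 50.8% and *Foxa3* had 18 at 68.8%. *Foxa1* and *Foxa2* carried H3K27me3 and Suz12 and *Foxa3* carried neither. *Foxa1* held the forkhead motif TGTTTAC on the opposite strand, 131 bp before the start, the only match to either forkhead motif among the 9 member promoters. Over the same stretch of all 22368 genes, 2.74% held TGTTTAC and 4% TGTTTGC. The promoters were searched after the marks had been seen.
Foxa1 promoter, chr12:58647109-58647358 (minus strand): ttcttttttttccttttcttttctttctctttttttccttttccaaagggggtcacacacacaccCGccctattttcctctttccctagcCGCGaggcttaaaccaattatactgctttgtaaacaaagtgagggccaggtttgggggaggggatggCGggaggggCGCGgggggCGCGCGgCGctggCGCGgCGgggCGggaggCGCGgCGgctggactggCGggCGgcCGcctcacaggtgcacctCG
Foxa2 promoter, chr2:147872706-147872955 (minus strand): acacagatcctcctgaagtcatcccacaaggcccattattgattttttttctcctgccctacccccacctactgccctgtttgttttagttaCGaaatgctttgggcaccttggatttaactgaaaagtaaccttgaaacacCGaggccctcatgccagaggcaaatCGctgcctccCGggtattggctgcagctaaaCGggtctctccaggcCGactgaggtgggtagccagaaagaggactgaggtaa
Foxa3 promoter, chr7:19608888-19609137 (minus strand): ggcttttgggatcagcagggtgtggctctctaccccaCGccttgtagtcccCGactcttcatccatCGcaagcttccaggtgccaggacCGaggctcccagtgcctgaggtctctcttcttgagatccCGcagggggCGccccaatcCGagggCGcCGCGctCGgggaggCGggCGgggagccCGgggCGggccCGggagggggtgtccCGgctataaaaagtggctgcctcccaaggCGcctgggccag

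*Foxd3* and *Foxo1* stood apart from each other. The *Foxd3* domain, which also covers the non-coding *Gm12688* start 1.316 kb upstream, held Suz12 over its full gene body of 2373 bp in all 4 lists. H3K27me3 from 50 to 5 kb upstream of *Foxd3* was separated lower, at 1925, 2539 and 2039 bp in control cultures against 1100, 1814 and 664 bp with 4-OHT, but not after scaling, when *Foxd3* was 3.84% higher over its locus window with mixed pairs. FLAG covered 25 and 50 bp near *Foxd3* in replicates 1 and 2, at places that did not overlap. At *Foxo1* some distal H3K27ac regions were listed only in control, while its promoter region was wider after 4-OHT, though not separated after scaling. A region 13.7 kb upstream covered 375 and 325 bp in control and 0 bp in both lists after 4-OHT, and FLAG replicate 2 alone listed 150 bp in it. Intronic regions 31.0 and 31.6 kb downstream of the start covered 25 and 175 bp and 200 and 300 bp in control and 0 bp after 4-OHT. A further intronic region, 27.3 kb downstream, overlapped between groups, at 600 and 0 bp in control cultures against 375 and 225 bp with 4-OHT. Regions of 200 bp 27.9 kb downstream and of 50 bp 14.8 kb upstream were listed in 4-OHT replicate 1 only. Over the whole gene body the groups overlapped, at 1250 and 775 bp in control cultures against 1175 and 675 bp with 4-OHT. At the end of the *Foxo1* locus window, 132.6 kb from the start and past the gene, a region that runs out of the window covered 1725 and 2075 bp in control cultures against 1175 and 1350 bp with 4-OHT and held a Brg1-bound region outside the window.

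**Figure D5:**
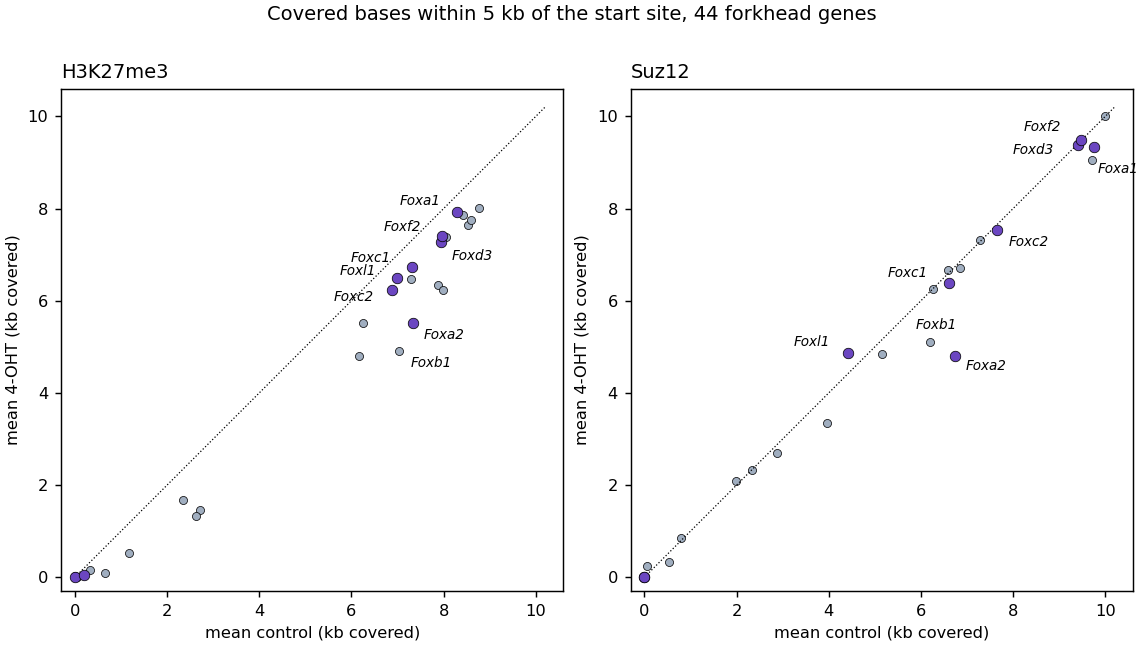
Mean kb covered within 5 kb of the start site in control (x axes) and after 4-OHT (y axes) for 44 forkhead genes, with the 9 members in purple and the other genes in grey; the dotted line marks equal values. Most H3K27me3 points lie a little below the line, and for both marks *Foxa2* and *Foxb1* lie furthest below it.

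Of the 19 other forkhead genes with H3K27me3 in any list, 1 was separated lower, *Foxi3*, and 15 were lower in all 3 pairs. The shares over all genes tested were 12% and 44%, and 77.8% of the 352 genes covered over at least 5000 bp in control were lower in all 3 pairs. Of the 15 with Suz12, *Foxq1* and *Foxb1* were separated lower and *Foxn4* higher, against 5.76% and 32.1% of all genes with Suz12. By Euclidean distance between covered base pairs over the 17 lists, the gene most like *Foxa2* was *Foxb1*, at 1876 bp. *Foxb1* covered 5226, 8851 and 7047 bp of H3K27me3 in control and 3197, 6651 and 4897 bp after 4-OHT, and 5897 and 6497 bp of Suz12 in control and 4347 and 5872 bp after 4-OHT. *Foxc1* and *Foxc2* were both nearest to *Foxd1*, *Foxl1* to *Foxd4*, *Foxa1* to *Foxd3*, and *Foxd3* to *Foxf1a*. *Foxa3* and *Foxo1*, with little or no Polycomb coverage, were both nearest to *Foxp3*.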

How the data were processed

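The authors deposited enriched regions for each replicate, aligned to mm9 with Bowtie per the labels and called over input with a Poissonian model, at 1e-06 and 2-fold over input for FLAG and 1e-12 otherwise. Lists hold positions only, on a 25 bp grid; values are neither counts nor signal. Inputs were not used here. Sample groups and replicate numbers came from the labels. Covered base pairs per window were computed with Python 3.11.15 and NumPy 2.4.6 on the GENCODE annotation of mm9. Single genes were compared by two-sided exact permutation tests, and H3K27me3 over all genes by limma 3.58.1 in R 4.3.3 on log2(bp + 25), with Benjamini-Hochberg adjustment, so differences are on that scale. Scripts were tested on simulated data. Brg1-bound regions shared at least 1 bp between 2 of 3 FLAG lists. Same-numbered H3K27me3 samples were taken as pairs because their deviations from the group means correlated across genes (r = 0.908, 0.819 and 0.763). Replicate 1 stood apart in both conditions, which can by itself raise all 3 values. They therefore do not show that replicates 2 and 3 were rightly matched by number, and crossed numbers were not compared. All 9 genes are named, other forkhead genes by largest change, binding or likeness. Members and lists were chosen with earlier results of these data known. One likeness result is not reported here.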

Additional observations from a re-analysis of the deposited data

How the results depend on the processing

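Members separated at the TSS window were recounted under each alternative, and ratios are of covered bp summed over members, 4-OHT to control. For H3K27me3, 1 member was lower over the locus window, 4 with the replicate block (paired), 3 higher after scaling, and 0 to 3 lower leaving out 1 list, the 3 being without control replicate 1 (*Foxc1*, *Foxf2* and *Foxa2*). limma called 0 members with or without the block, with a pseudocount of 250 and on untransformed bp. For Suz12, 2 members were lower within 2.5 kb, 2 over the locus window, 3 after scaling and 2 with the block; 0 were higher within 2.5 kb, in the gene body, over the locus window or after scaling; leaving out 1 list gave 1 to 6 lower and 1 to 5 higher. The ratio was 0.958, and 0.873 after scaling. *Foxl1* turned to -12.5 bp within 2.5 kb and -600 bp over the locus window. For H3K27ac, 3 were lower and 1 higher over the locus window, 0 were higher in the gene body, with regions of at least 500 bp or after scaling, and 0 to 1 were lower leaving out 1 list. The ratio was 1.16, but 0.881 in the gene body, 0.773 over the locus window, 1.45 with regions of at least 500 bp and 1.57 with regions joined within 1 kb. *Foxo1* turned to -87.5 and -528 bp in the gene body and locus windows, and *Foxa3* to -212.5, -37.5 and -18.1 bp over the locus window, with regions of at least 500 bp and after scaling. A region in any FLAG list was found at 4 members in the TSS window and 8 over the locus window (14.1% and 44.3% of all genes), and leaving out 1 FLAG list gave 1 to 3 over the locus window. The cause was not tested. For Suz12 and H3K27ac, same-numbered samples deviated together, with 2 pairs each, and numbers were not crossed. The pairs and the scaling over the locus window and its segments were chosen after seeing the data. Without scores or depth, a region that weakens below the calling threshold and one that is lost look alike.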

Other observations

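*Foxe1* and *Foxl2* were picked after their values were seen. Of the 17 other forkhead genes with H3K27ac in any list, 8 were separated higher, these genes among them, and 0 lower. Over all genes with H3K27ac the shares were 39.8% and 12.6%. *Foxe1*, a thyroid transcription factor, had no listed H3K27ac in its TSS window in either control and 850 and 350 bp with 4-OHT. *Foxl2*, an ovarian factor, had 525 and 0 bp in control cultures against 1525 and 1125 bp with 4-OHT. Both carried H3K27me3 in all 6 lists and Suz12 in all 4. *Foxh1*, a partner of Smad proteins in Nodal signalling, was the only forkhead gene of 44 with a Brg1-bound region in its TSS window, where FLAG covered 175, 475 and 0 bp. Its H3K27ac was 5850 and 6100 bp in control cultures against 5925 and 6100 bp with 4-OHT.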
